A study of Homo sapiens and Mus musculus with 16 samples.

Results

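RNA of P-bodies sorted from HEK293T cells was compared with RNA of the cytoplasmic fraction of the same cells. The comparison rests on 4 of the 16 libraries of the series, 2 of P-bodies and 2 of cytoplasm, selected by their labels and by the names of their columns in the human count table. HEK293T is a human embryonic kidney line transformed with adenoviral DNA and expressing the SV40 large T antigen. All 4 libraries came from cells labelled HEK293T-LSM14a-GFP, which carried a lentiviral construct driving a fusion of green fluorescent protein (GFP) to LSM14A from the EF1a promoter, with no other treatment and no untagged control among the libraries. The other libraries of the series came from liver bud progenitors, neurons (titled d20) and mouse embryonic stem cells. Column names mark the liver bud and neuron cells as carrying the LSM14A-GFP tag too. In the paper, human embryonic stem cells and the neurons derived from them had GFP-LSM14A at the AAVS1 locus, another construct than in HEK293T. The cytoplasmic fraction was an aliquot of the pelleted lysate before sorting, after nuclei had been removed, so it still held its P-bodies. Particles were then sorted from that lysate by GFP fluorescence. The labels give the HEK293T RNA as total RNA, prepared with random priming (the Snap seq protocol), and call the libraries of each fraction replicates 1 and 2. The labels do not say whether they came from separate cultures, so p-values measure the spread between these libraries.

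P-bodies are cytoplasmic granules with no membrane that form from RNA and RNA-binding proteins. Their best known constituents repress translation, remove the cap or shorten the poly(A) tail of messenger RNAs, and messages held in them are in general not being translated. LSM14A and the helicase DDX6 are structural components of these granules, and EDC4 is a scaffold of the decapping complex.

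Gene counts summed to 15294994 and 17972284 in the P-body libraries and to 11944714 and 11192209 in the cytoplasmic libraries. Ribosomal RNA genes took 4.75% and 4.32% of the counts in P-bodies and 16.6% and 15.9% in cytoplasm. Genes on a list of HEK293 line genes summed to 1130 CPM (counts scaled to 1000000 per library) in each P-body library and to 671 and 675 CPM in cytoplasm. LIN28B, CDH2 and NEFL were the highest of them, LIN28B alone at 419 and 447 CPM in P-bodies. Of the 16 listed genes 14 reached a mean of 1 CPM, and NES (0.693 CPM) and DLK1 (0.116 CPM) did not. PAX2, LHX1 and NEFM had means of only 2.03, 2.14 and 1.53 CPM. The listed hepatic genes summed to between 4.68 and 7.37 CPM over the 4 libraries, and blood and endothelial genes to between 1.70 and 2.96 CPM. Neuronal genes summed to between 49.9 and 73.8 CPM, most of it SYT1. Pluripotency genes summed to between 41.4 and 71.3 CPM, most of it SOX2 and DNMT3B, while POU5F1 stayed at or under 0.96 CPM in every library.

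A pair of sequence sets carries the patterns described further on. The first set shows 30 coding bases from 6 genes at the ends of the range of GC content at the third codon position (GC3), with the third base of each codon in capitals. For each gene the first window inside 1 exon whose GC3 came nearest to that of the whole coding sequence is shown, 5′ to 3′ on the coding strand, from GENCODE 44 on hg38. The first 3 genes were enriched in P-bodies and the last 3 depleted, and the 3 of each kind had the smallest p-values in the lowest and highest decile of GC3, taken from genes whose mean level reached 20 CPM.
PNISR, chr6:99412687-99412716, minus strand, exon 4: gcCcaAgcTtgGatTgcCcaAagAgaAgcT
ZEB1, chr10:31461075-31461104, plus strand, exon 2: tcAgaTgaTgaAgaCaaActGcaTatTgtG
TUT4, chr1:52526251-52526280, minus strand, exon 2: atGgaAgaGtcTaaAacCttAaaAagTgaA
ACTB, chr7:5529622-5529651, minus strand, exon 2: gaTgaTatCgcCgcGctCgtCgtCgaCaaC
SNRPD2, chr19:45688530-45688559, minus strand, exon 2: ctCaaCaaGccCaaGagTgaGatGacCccA
EEF2, chr19:3984321-3984350, minus strand, exon 2: gtGaaCttCacGgtAgaCcaGatCcgCgcC
Of the 10 capitals in each window, 3 are G or C in PNISR, ZEB1 and TUT4, 8 in ACTB and SNRPD2, and 9 in EEF2.

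The second set gives 4 microRNAs whose matches in 3′ untranslated regions (3′ UTRs) were compared, as RefSeq holds them, with the seed (bases 2 to 8) in capitals. MicroRNA levels were not measured in these libraries. The let-7 family and miR-17 are widely expressed, miR-21 is common in cultured cells, and miR-122 is known from liver.
hsa-let-7a-5p: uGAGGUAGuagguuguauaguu
hsa-miR-17-5p: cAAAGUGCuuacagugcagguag
hsa-miR-21-5p: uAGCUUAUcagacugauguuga
hsa-miR-122-5p: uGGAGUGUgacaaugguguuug
The 4 seeds differ, and the site paired to each has 4 G or C bases for let-7a and miR-122, 3 for miR-17 and 2 for miR-21.

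Most listed genes of the respiratory chain (52 of 55), the proteasome (26 of 32), glycolysis (15 of 17) and the spliceosome (24 of 30) were lower in P-bodies than in cytoplasm, and most of those of chromatin remodelling (21 of 28), the kinetochore (24 of 37) and the TGF-beta and BMP pathway (23 of 34) were higher. Of 21903 genes with any read in the 4 libraries, edgeR's quasi-likelihood test called 4221 higher in P-bodies (enriched, 19.3%) and 4986 lower (depleted, 22.8%) at a Benjamini-Hochberg adjusted p under 0.05. Of the 12836 genes whose mean level reached 1 CPM, 32.0% were enriched and 38.0% depleted, 70.0% in all. The 2 libraries of one fraction lay outside the range of the other for 64.8% of all genes tested and for 85.2% of those with at least 1 CPM. Changes were more often large on the depleted side, where 2767 genes were at least 2-fold lower, against 1406 at least 2-fold higher. Among genes with at least 1 CPM the middle of the distribution ran from a log2 change of -0.89 (first quartile) to 0.56, and its outer points from -1.61 (5th percentile) to 1.22 (95th percentile).

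**Figure D1:**
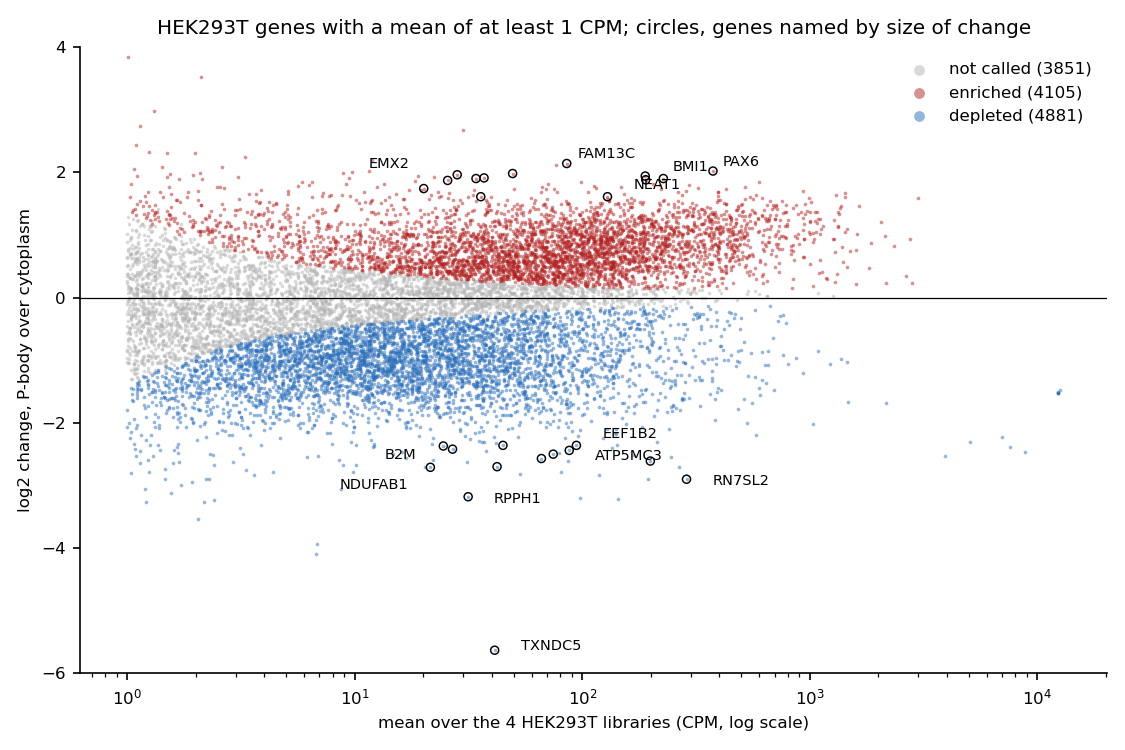
Log2 change between P-body and cytoplasm (vertical axis) against the mean level over the 4 libraries in CPM (horizontal axis, log scale) for the 12836 HEK293T genes whose mean level reached 1 CPM. Red points are the 4105 enriched genes, blue points the 4881 depleted ones, grey points were not called, and circles mark the genes chosen for the size of their change, from TXNDC5 at -5.63 to FAM13C at 2.14.

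The direction of the change varied with the level. Between 1 and 10 CPM, 453 of 4570 genes were enriched and 1717 depleted. Between 100 and 1000 CPM, 1556 of 2232 genes were enriched and 499 depleted, and the median log2 change was 0.62. CPM is not corrected for transcript length, so these bands mix abundance with length.

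The 10 most enriched coding messages named here lie outside the ribosomal protein, histone and zinc finger families. FAM13C, named for its sequence family and lying at chr10:59246130-59363181, stood at 147 and 132 CPM in P-bodies against 31.3 and 32.0 CPM in cytoplasm. Its log2 change was 2.14 ± 0.09 (SE, as for every log2 change given with ±; adjusted p = 3.87e-30). Both P-body libraries were thus over 4 times as high as either cytoplasmic one.
PAX6, a paired-box factor of eye and brain development at chr11:31784779-31817961, was at 617 and 587 CPM in P-bodies and at 137 and 159 CPM in cytoplasm (2.02 ± 0.06, adjusted p = 8.03e-36). LHX8, a LIM-homeodomain factor, was at 79.1 and 78.8 CPM against 20.8 and 19.1 CPM (1.98 ± 0.10). MAB21L1, a gene of eye development, was at 45.7 and 43.9 CPM against 10.4 and 12.8 CPM (1.96 ± 0.14). In each of these genes the libraries of a fraction lay close together and the fractions did not overlap, as the selection required.
The ankyrin-repeat gene ANKRD46 averaged 300.0 ± 8.91 CPM (SD, n = 2) against 78.2 ± 2.25 CPM, a log2 change of 1.94 ± 0.07. DUSP10, a phosphatase acting on stress-activated kinases, averaged 58.4 ± 2.29 CPM (SD, n = 2) against 15.5 ± 2.11 CPM (log2 change 1.91 ± 0.12), and the ETS factor FLI1 at 56.3 and 51.4 CPM against 14.5 and 14.3 CPM (1.90 ± 0.12). SNAI2, a repressor active in epithelial-mesenchymal transition, was at 322 and 276 CPM against 83.6 and 79.0 CPM (1.88 ± 0.07), and the homeodomain gene EMX2 averaged 40.2 ± 0.377 CPM (SD, n = 2) against 11.0 ± 1.66 CPM (log2 change 1.87 ± 0.14).
The remaining gene, BMI1, a Polycomb protein, was at 369 and 346 CPM against 87.3 and 104 CPM (1.90 ± 0.07). The read-through gene COMMD3-BMI1, which shares its exons, went the other way, at 48.6 and 71.3 CPM in P-bodies against 191 and 152 CPM in cytoplasm (-1.51 ± 0.09). Added up, BMI1 and COMMD3-BMI1 gave 417 and 418 CPM in P-bodies against 279 and 257 CPM in cytoplasm, a log2 ratio of 0.64, so the size of the change of BMI1 depended on how shared reads were assigned.

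The 10 most depleted coding messages were chosen in the same way. NDUFAB1, the mitochondrial acyl carrier protein and a subunit of respiratory complex I, at chr16:23581014-23596316, was at 5.83 and 5.57 CPM in P-bodies and at 41.6 and 32.9 CPM in cytoplasm (-2.71 ± 0.16, adjusted p = 1.00e-22). The subunits of the ATP synthase ATP5MD and ATP5MC3 followed. ATP5MD was at 10.6 and 11.8 CPM against 74.7 and 71.8 CPM (-2.70 ± 0.12), and ATP5MC3 at 26.4 and 28.0 CPM against 152 and 145 CPM (-2.44 ± 0.09).
SNRPE, a core protein of spliceosomal particles, was at 17.6 and 20.5 CPM against 111 and 115 CPM (-2.57 ± 0.10), and TEX261, a membrane protein of the early secretory pathway, at 23.7 and 21.1 CPM against 122 and 132 CPM (-2.50 ± 0.09). The redox protein thioredoxin (TXN) was at 8.78 and 8.18 CPM against 51.4 and 39.3 CPM (-2.42 ± 0.14). B2M, the light chain of MHC class I, was at 7.61 and 8.24 CPM against 43.5 and 38.6 CPM (-2.37 ± 0.14). In all of these the cytoplasmic libraries were the high ones, by a margin far over the gap between libraries of a fraction.
EEF1B2, an exchange factor of translation elongation, was at 28.9 and 32.3 CPM against 160 and 155 CPM (-2.36 ± 0.08), and HSPE1, the mitochondrial co-chaperonin, at 15.8 and 13.6 CPM against 74.1 and 75.8 CPM (-2.36 ± 0.11).
TXNDC5, a disulfide isomerase of the endoplasmic reticulum at chr6:7881517-7910788, had the largest fitted change, with 0.48 and 2.61 CPM against 79.1 and 82.4 CPM (-5.63 ± 0.19). Its value was -4.95 without P-body replicate 1 and -7.37 without P-body replicate 2. The read-through gene BLOC1S5-TXNDC5 was at 107 and 111 CPM in P-bodies and at 83.0 and 68.8 CPM in cytoplasm (0.52 ± 0.08). The sum of TXNDC5 and BLOC1S5-TXNDC5 was 107 and 114 CPM against 162 and 151 CPM, a log2 ratio of -0.50, so most of the fitted change of TXNDC5 lay in the split of reads between both genes.

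**Figure D2:**
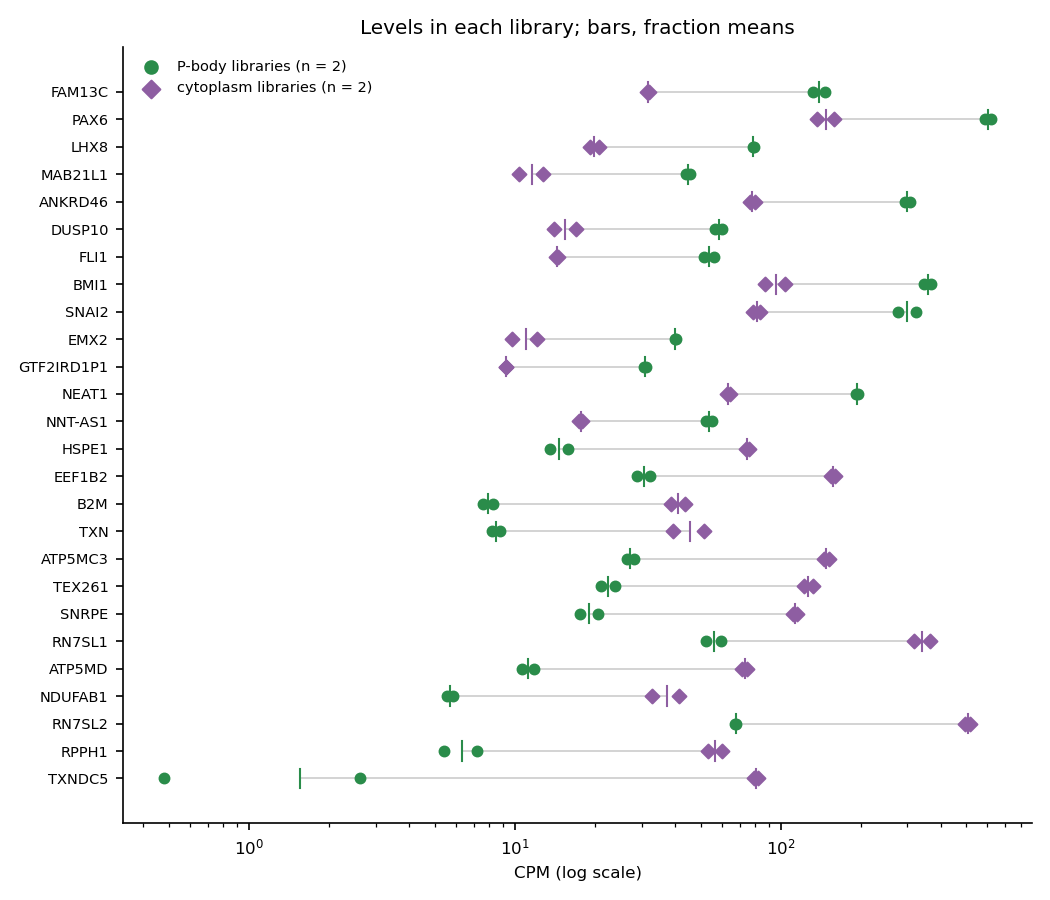
CPM in each library (horizontal axis, log scale) of the 26 genes chosen for the size of their change, 20 coding and 6 noncoding. Circles are the 2 P-body libraries, diamonds the 2 cytoplasmic libraries and short bars the fraction means; the 13 upper genes have both P-body libraries to the right of the cytoplasmic ones and the 13 lower genes the reverse.

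RNAs that are not translated fell into separate groups. Protein-coding genes held 94.0% and 94.4% of CPM in the P-body libraries and 81.2% and 81.8% in the cytoplasmic ones. Long noncoding RNAs held close to the same share in both fractions, between 0.667% and 0.681%, and of the 2429 tested 104 were enriched and 129 depleted. Small nuclear RNA genes held 0.157% and 0.168% of CPM in P-bodies and 0.823% and 0.937% in cytoplasm, most of it from RN7SK, described below. Only 2 of the 12 genes of this type reached a mean of 1 CPM. Of the genes annotated as small nuclear RNA 6 of 12 were depleted, and of those annotated as miscellaneous RNA 5 of 8.
RPPH1, the RNA of ribonuclease P, was at 7.20 and 5.40 CPM against 53.4 and 60.0 CPM (-3.18 ± 0.14). RN7SL2 and RN7SL1, near-identical genes for the RNA of the signal recognition particle, were at 68.1 and 67.4 CPM against 516 and 496 CPM (-2.90 ± 0.06) and at 59.4 and 52.4 CPM against 365 and 318 CPM (-2.61 ± 0.07). Reads can be split between these near-identical genes, yet both had the same direction.
Over the whole list of nuclear and small noncoding RNAs 12 of 27 were depleted and 2 enriched, with a median of -1.86 that moved to -1.22 without cytoplasm replicate 2 and to -2.52 without P-body replicate 2. RN7SK, the RNA that restrains the elongation kinase P-TEFb, was at 1650 and 1750 CPM against 7890 and 8910 CPM (-2.31 ± 0.05), and RNY3, a Y RNA, at 1.65 and 3.25 CPM against 18.7 and 15.7 CPM (log2 change -2.78). Of 18 host genes of small nucleolar RNAs 13 were depleted and 1 enriched, with a median log2 change of -1.42. SNHG5 fell by 1.64 and SNHG1 by 1.16 on the log2 scale, while SNHG16 rose by 0.16, a call lost when either P-body library was left out (edgeR adjusted p = 0.0698 and 0.0713) and under scaling by library totals (0.70).
NEAT1, the scaffold of nuclear paraspeckles, was in contrast high in P-bodies, at 192 and 196 CPM against 64.7 and 62.6 CPM (1.61 ± 0.07). MALAT1, another nuclear-retained RNA, differed far less, at 291 and 301 CPM against 268 and 241 CPM (0.22 ± 0.06, adjusted p = 0.00175; the call was lost when P-body replicate 2 was left out, at 0.0559, when cytoplasm replicate 2 was, at 0.0582, and under scaling by totals alone, at 0.259). The pseudogene GTF2IRD1P1 was at 31.1 and 30.6 CPM against 9.24 and 9.28 CPM (1.74 ± 0.15), and the antisense RNA NNT-AS1 at 52.5 and 55.3 CPM against 17.4 and 17.9 CPM (1.61 ± 0.12). Antisense reads and reads of pseudogene copies can be shared with their partners.
Of 16 long noncoding RNAs listed for cytoplasmic roles 10 were depleted, with DANCR at -0.90 ± 0.10 and TUG1 at -0.76 ± 0.07, and 2 were enriched, HCG18 at 0.98 ± 0.08 and OIP5-AS1 at 0.61 ± 0.08.

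The functional classes, 38 lists with 1219 different genes tested, showed contrasts between biological processes. Of those genes 410 were enriched and 542 depleted. Among all genes with at least 1 CPM, 32.0% were enriched and 38.0% depleted. Counts near those shares, such as those of chaperones, DNA replication factors and cyclins, do not set a class apart. The class median lay above that of all genes tested (-0.01) in 14 classes. Counting by calls, 15 classes had more enriched than depleted members and 23 had more depleted ones. The lists were drawn up with earlier results of these data known, so their counts are a description.

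**Figure D3:**
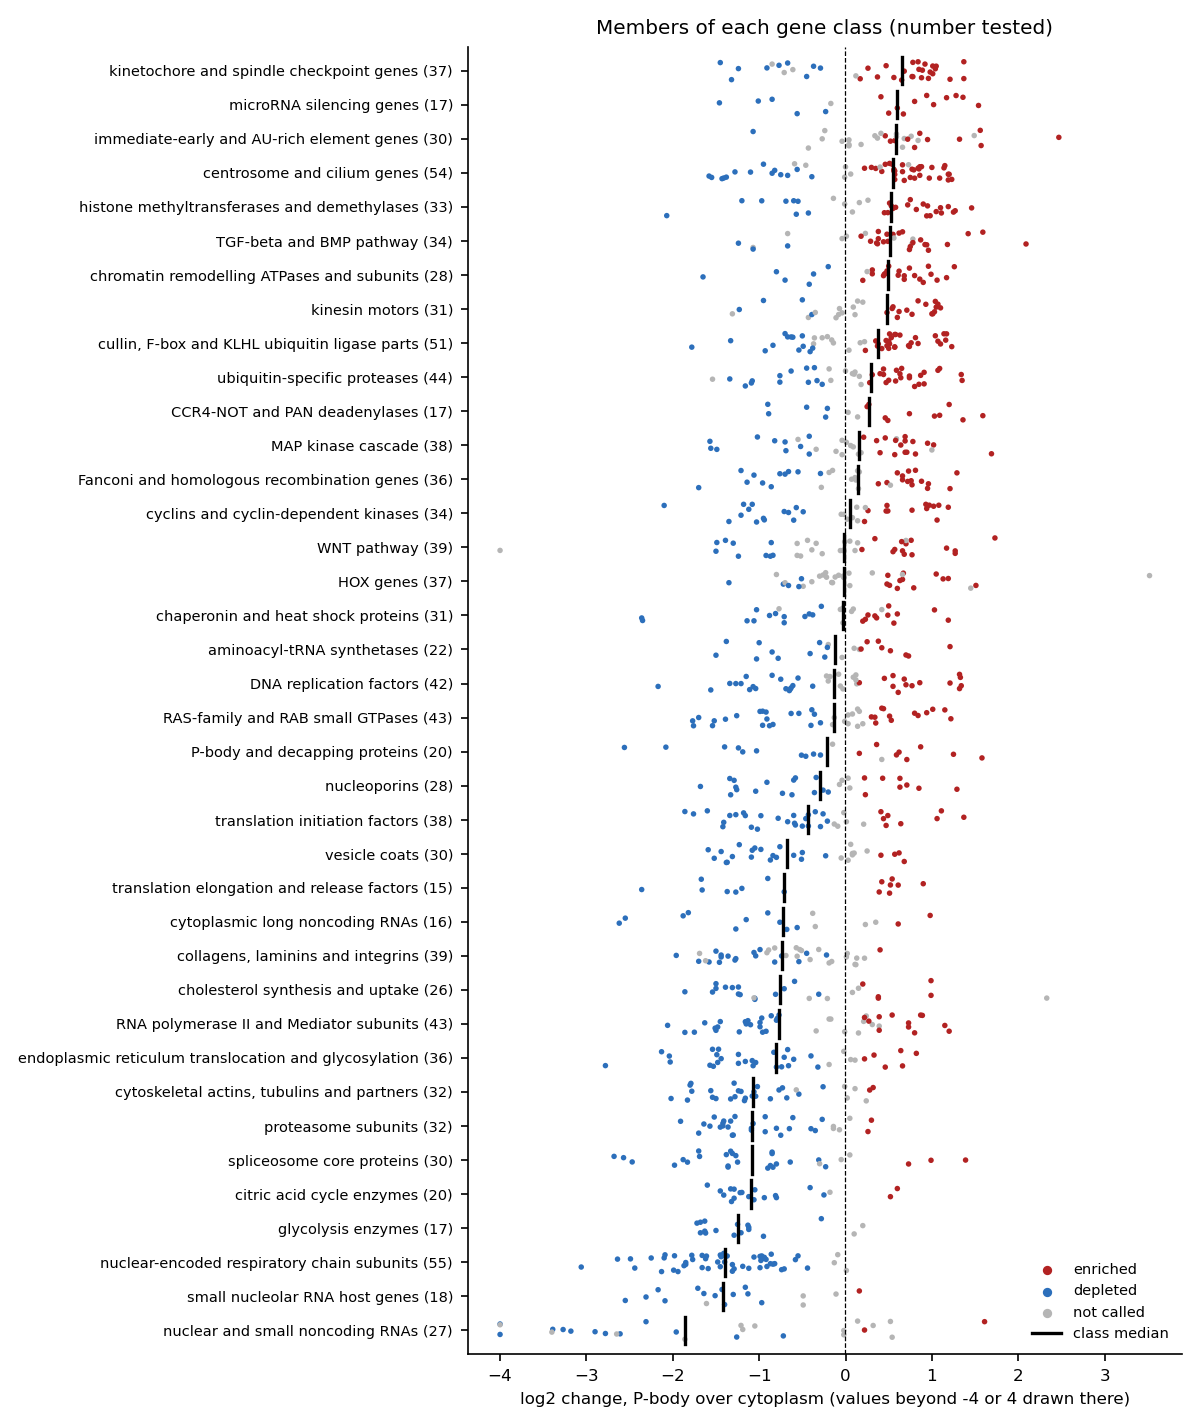
Log2 change between P-body and cytoplasm (horizontal axis) of every tested member of the 38 gene classes (rows, number tested in parentheses), sorted by class median. Red, blue and grey points are enriched, depleted and not called, black bars are class medians, and the dashed line is the median of all genes tested at -0.01; kinetochore genes sit at the top with 0.65 and nuclear and small noncoding RNAs at the bottom with -1.86, ranks that both change when cytoplasm replicate 2 is left out.

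Messages of energy metabolism were low in P-bodies with few exceptions. Of 55 nuclear-encoded subunits of the respiratory chain, 52 were depleted, and the median log2 change was -1.39. Besides ATP5MC3, UQCRH of complex III was at 50.8 and 56.7 CPM against 186 and 202 CPM (-1.85 ± 0.07). The members not called were NDUFA5, NDUFS1 and COX6A1, with log2 changes of -0.09, 0.01 and -0.13.
Of 17 glycolytic enzymes 15 were depleted (median -1.25). GAPDH was at 1040 and 1030 CPM in P-bodies and at 3070 and 3530 CPM in cytoplasm (-1.68 ± 0.05), and PGAM1, the phosphoglycerate mutase, at 114 and 118 CPM against 372 and 395 CPM (-1.72 ± 0.06). The exceptions HK2 and ENO2 had values of 0.10 and 0.20.
Of 20 citric acid cycle enzymes 17 were depleted (median -1.09), with citrate synthase (CS) at -1.45 ± 0.07 and SDHC at -1.60 ± 0.10, while IDH3A rose by 0.52. The genes encoded by the mitochondrial genome itself were not in the table. Nuclear copies of the mitochondrial 16S ribosomal RNA gene, whose counts can hold reads of the mitochondrial RNA, were chosen after their values were seen. Of these, MTRNR2L2 was at 63.4 and 78.2 CPM against 466 and 455 CPM (-2.70 ± 0.07).

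Messages of protein handling were depleted more often than enriched. Of 32 proteasome subunits 26 were depleted and 2 enriched (median -1.08). PSMB2, a subunit of the core, was at 137 and 141 CPM against 322 and 365 CPM (-1.31 ± 0.06), and PSMD8 of the regulatory lid at 42.6 and 43.2 CPM against 130 and 150 CPM (-1.70 ± 0.08). The enriched members PSMC1 and PSMD12 changed by 0.26 and 0.30, and both calls were lost when libraries were scaled by their totals alone (edgeR adjusted p = 0.194 and 0.0743). That of PSMC1 was also lost when replicate 2 of P-bodies (0.233) or of cytoplasm (0.0587) was left out.
Of 36 genes of translocation and glycosylation in the endoplasmic reticulum 26 were depleted and 6 enriched (median -0.81). STT3A, a catalytic subunit of the oligosaccharyltransferase, was at -1.53 ± 0.06 and RPN1 of the same complex at -1.57 ± 0.07, whereas SEC62 rose by 0.82 and SRP72 by 0.66. Vesicle coats had 19 of 30 members depleted, among them clathrin heavy chain CLTC (-1.37 ± 0.07) and COPZ1 (-1.52 ± 0.07), and 4 enriched, among them SEC24B and AP1G1 (0.57 and 0.62).
Among chaperones the calls were split, with 11 enriched and 13 depleted of 31, near the shares of all genes with at least 1 CPM. HSPA8, the constitutive Hsp70, fell to 971 and 942 CPM from 1910 and 1980 CPM in cytoplasm (-1.03 ± 0.05), and HSPH1, its nucleotide exchange factor, was at 1480 and 1500 CPM against 670 and 640 CPM (1.19 ± 0.05). The fractions did not overlap for either gene, in opposite directions.

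Messages of the translation machinery went in both directions. Of 38 initiation factors 8 were enriched and 25 depleted (median -0.44). The helicase EIF4A1 was at 204 and 218 CPM against 537 and 533 CPM (-1.34 ± 0.06), and EIF4EBP2, a repressor of the cap-binding protein, at -1.60 ± 0.06. EIF5B, which joins ribosomal subunits, was at 1480 and 1540 CPM against 600 and 570 CPM (1.37 ± 0.05), and EIF2S2 at 1.06 ± 0.05.
Of 15 elongation and release factors 7 were enriched and 8 depleted. EEF1A1, which delivers aminoacyl-tRNA, was at 699 and 711 CPM against 2190 and 2270 CPM (-1.66 ± 0.05), and EEF2, whose sequence is shown earlier, at 356 and 317 CPM against 789 and 837 CPM (-1.27 ± 0.06). The enriched side held ribosome rescue and recycling factors, HBS1L at 0.90 ± 0.06, ABCE1 at 0.61 ± 0.06 and PELO at 0.51. It also held the release factors ETF1 (0.52) and GSPT1 (0.39), and EEF1E1 (0.42) and EIF5A2 (0.54). EIF5A, by contrast, was at -1.67. The list of aminoacyl-tRNA synthetases had 8 members enriched and 10 depleted of 22. It includes AIMP1 and AIMP2, scaffold proteins rather than synthetases, and AIMP1 was at 1.21 ± 0.08. Of the synthetases themselves TARS1 was at 0.73 ± 0.06 and FARSA at -1.38 ± 0.08.

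In the nucleus-directed classes, regulators of chromatin were mostly enriched and core spliceosome proteins mostly depleted. RNA polymerase II and Mediator genes were more often depleted than enriched. Of 28 chromatin remodelling genes 21 were enriched and 6 depleted (median 0.49). CHD2 was at 237 and 240 CPM against 94.2 and 105 CPM (1.26 ± 0.07) and BAZ2B at 459 and 478 CPM against 210 and 207 CPM (1.17 ± 0.06), while SMARCD1 and SMARCB1 of the BAF complex fell by 1.65 and 0.80.
Of 33 histone methyltransferases and demethylases 20 were enriched and 8 depleted (median 0.53). EZH2, the Polycomb methyltransferase, was at 707 and 709 CPM against 265 and 250 CPM (1.46 ± 0.06). The MLL-family relatives KMT2E and KMT2D went in opposite directions. KMT2E was at 1540 and 1510 CPM against 656 and 627 CPM (1.25 ± 0.05), and KMT2D at 34.4 and 32.6 CPM against 136 and 145 CPM (-2.07 ± 0.08).
Of 30 core spliceosome proteins 24 were depleted and 3 enriched (median -1.08). PRPF8, the central scaffold, was at 374 and 346 CPM against 914 and 930 CPM (-1.36 ± 0.05), and SNRPD2 at 53.7 and 59.8 CPM against 194 and 209 CPM (-1.83 ± 0.07). The enriched ones included PRPF3 (1.39 ± 0.06) and PRPF4 (0.99 ± 0.08), which bind each other in the U4/U6 particle. RNA polymerase II and Mediator genes had 22 depleted and 12 enriched of 43, with POLR2A at -1.75 ± 0.06, MED14 at -1.23 ± 0.06, MED13L at 1.15 ± 0.05 and CCNC at 0.87 ± 0.07. Nucleoporins had 16 depleted and 8 enriched of 28, from NUP155 at -1.68 ± 0.07 and POM121 at -1.34 ± 0.07 to NUP58 at 0.85 ± 0.06 and NUP50 at 1.29 ± 0.06.

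Among the classes of cell division, kinetochore, centrosome and kinesin genes had more enriched than depleted members, and replication factors and cyclins did not. Of 37 kinetochore and spindle checkpoint genes 24 were enriched and 9 depleted, with a median of 0.65. That median was the highest of the 38 classes, a rank lost when P-body replicate 1 or cytoplasm replicate 2 was left out (0.52 without the latter). SGO1, the protector of centromeric cohesion, was at 353 and 343 CPM against 137 and 133 CPM (1.37 ± 0.06) and the kinase AURKA at 406 and 458 CPM against 185 and 189 CPM (1.21 ± 0.06). Separase (ESPL1) and survivin (BIRC5) were on the depleted side, at -1.32 ± 0.10 and -1.24 ± 0.13.
Of 54 centrosome and cilium genes 33 were enriched and 14 depleted, with CEP170 and CEP97 at 1.20 and 1.19 and the intraflagellar transport genes IFT52 and IFT46 at -1.43 and -0.85. Of 31 kinesins 16 were enriched and 4 depleted, with KIF23 at 1.04 and KIF2A at 1.00. The depleted KIF1C and KIF22 were at -1.23 and -0.50, and the call for KIF22 was lost in a fit of all 12 human libraries (adjusted p = 0.0863).
DNA replication factors had 14 enriched and 18 depleted of 42, near the shares of all genes with at least 1 CPM (32.0% and 38.0%). RFC1 was at 1310 and 1410 CPM against 554 and 520 CPM (1.34 ± 0.05), MCM10 was at 1.32 ± 0.05, and GINS2 and POLD2 were at -1.15 ± 0.09 and -1.11 ± 0.07. In the Fanconi and homologous recombination class 15 of 36 were enriched, with BRCA1 at 1.21 ± 0.05 and RBBP8 at 1.29 ± 0.06, and 11 depleted, with FANCD2 at -0.96 ± 0.09 and ATR at -0.55 ± 0.09. Cyclins and cyclin-dependent kinases had 13 enriched and 14 depleted of 34, from CCNI at -2.10 ± 0.07 and CDK16 at -1.21 ± 0.07 to CCNJ at 0.93 ± 0.06 and CCNT2 at 0.97 ± 0.06.

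Ubiquitin genes were enriched more often than depleted, with 23 against 12 of 44 ubiquitin-specific proteases and 29 against 13 of 51 ligase components. USP10 was at 1100 and 1100 CPM against 414 and 448 CPM (1.35 ± 0.05), USP8 was at 1.09 ± 0.06, USP9X at -1.09 ± 0.05 and USP22 at -0.76 ± 0.07. Among ligase parts BTRC was at 1.23 ± 0.05 and FBXO5, an inhibitor of the anaphase-promoting complex, at 1.14 ± 0.05, while FBXO9 and KLHL9 were at -0.70 ± 0.12 and -0.67 ± 0.09.

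Signalling classes differed between pathways. In the TGF-beta and BMP pathway, 23 of 34 members were enriched and 3 depleted (median 0.52). SMAD5, which relays BMP signals, was at 4490 and 4500 CPM against 1480 and 1510 CPM (1.59 ± 0.04), and the receptor BMPR1A was at 368 and 359 CPM against 196 and 178 CPM (0.96 ± 0.06). The transcriptional antagonist SKI fell by 1.07, and LTBP1, which stores latent ligand, by 0.67.
The WNT pathway had 14 members enriched and 9 depleted of 39. AXIN2, a feedback inhibitor and target of the pathway, was at 111 and 102 CPM against 29.9 and 34.1 CPM (1.73 ± 0.09) and the receptor LRP6 at 0.76 ± 0.06, whereas beta-catenin (CTNNB1) was at 221 and 217 CPM against 400 and 385 CPM (-0.84 ± 0.06) and DVL3 at -1.24 ± 0.07.
In the MAP kinase cascade 16 of 38 were enriched and 10 depleted, and opposite directions occurred among the MAP2 kinases. MAP2K6 was at 0.95 ± 0.07 and MAP2K2 at -1.56 ± 0.12, and MAP3K2 was at 0.69 ± 0.05 and MAPK3 (ERK1) at -1.57 ± 0.11. RAS-family and RAB genes had 13 enriched and 20 depleted of 43, with NRAS at 1470 and 1460 CPM against 619 and 643 CPM (1.22 ± 0.05) and RHOA at 118 and 118 CPM against 406 and 395 CPM (-1.76 ± 0.06). RAB33B was at 1.15 ± 0.09 and RAB5C at -1.70 ± 0.08.
Of 30 immediate-early and AU-rich element genes 11 were enriched and 1 depleted (median 0.58), with 18 not called. KLF10 was at 141 and 138 CPM against 57.4 and 54.6 CPM (1.32 ± 0.08) and PPP1R15A (GADD34) at 42.9 and 43.9 CPM against 14.9 and 14.6 CPM (1.56 ± 0.13). MYC, at 229 and 213 CPM against 154 and 155 CPM, and JUN, at 162 and 151 CPM against 104 and 107 CPM, changed by 0.52 and 0.57, and the depleted member was the kinase inhibitor gene CDKN1A (-1.07).
HOX genes, which set position along the body axis, had 12 enriched and 5 depleted of 37. HOXA13 was at 156 and 170 CPM against 90.1 and 98.1 CPM (0.79 ± 0.07). HOXA9 was at 44.5 and 43.2 CPM against 14.4 and 16.5 CPM (1.51 ± 0.13), and with the counts of the read-through gene HOXA10-HOXA9 added the log2 ratio was 1.09.

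Structural and lipid genes lay on the low side. Of 32 cytoskeletal genes 25 were depleted and 2 enriched. The tubulin TUBA1B was at 402 and 414 CPM against 1610 and 1690 CPM (-2.02 ± 0.05), profilin PFN1 at 229 and 207 CPM against 721 and 772 CPM (-1.78 ± 0.06), and beta-actin (ACTB), whose sequence is shown earlier, at 194 and 179 CPM against 525 and 555 CPM (-1.54 ± 0.06). The enriched members ARPC5 and CAPZA1 changed by only 0.32 and 0.28.
Collagens, laminins and integrins had 18 depleted and 1 enriched of 39, the enriched one being ITGB1 (0.40 ± 0.09). FN1 was at -0.82 ± 0.14, and LAMC1 at -0.22 ± 0.06, a call lost with DESeq2 (adjusted p = 0.108) and in edgeR with RLE size factors (0.0953) and with all 12 human libraries (0.355). Cholesterol genes had 15 depleted and 5 enriched of 26, with the sterol sensor partner SCAP at -1.50 ± 0.10 and the isomerase IDI1 at 0.99.

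The messages of P-body proteins themselves went both ways, as did those of all genes. LSM14A, native and tagged copies counted as 1 gene, was at 377 and 377 CPM in P-bodies and at 487 and 490 CPM in cytoplasm (-0.37 ± 0.05). DDX6 was at 275 and 270 CPM against 401 and 378 CPM (-0.51 ± 0.06), and EDC4 at 21.5 and 19.7 CPM against 50.5 and 58.2 CPM (-1.40 ± 0.12). The messages of these defining P-body proteins were thus lower in the sorted P-bodies.
DCP1A, an activator of the decapping enzyme, was instead at 856 and 824 CPM against 280 and 284 CPM (1.58 ± 0.05), and EIF4ENIF1, the eIF4E transporter, at 227 and 216 CPM against 88.1 and 97.8 CPM (1.25 ± 0.07). DCP2, the decapping enzyme, changed by 0.71. Among the LSM ring proteins, which bind deadenylated ends, LSM2 and LSM7 fell by 2.56 and 2.08 and LSM4 by 1.24, while LSM1 and LSM6 were not called. In the whole class 8 of 20 were enriched and 10 depleted, beside 32.0% and 38.0% of all genes with at least 1 CPM.
The deadenylase class had 10 enriched and 5 depleted of 17. CNOT8, a catalytic subunit, was at 257 and 236 CPM against 83.0 and 80.2 CPM (1.59 ± 0.07), and TOB1, an adaptor, at 559 and 540 CPM against 210 and 218 CPM (1.36 ± 0.06). CNOT11 and CNOT3 were at -0.90 ± 0.12 and -0.45 ± 0.07, the latter not called in a fit of all 12 human libraries (adjusted p = 0.0607).
Genes of microRNA silencing had 11 enriched and 5 depleted of 17. The GW182 proteins TNRC6A, TNRC6B and TNRC6C were all enriched, with log2 changes of 1.17, 1.36 and 1.28, and TUT4, which uridylates let-7 precursors, was at 1150 and 1110 CPM against 382 and 395 CPM (1.54 ± 0.05). LIN28B, which blocks let-7 maturation, was at 419 and 447 CPM against 223 and 205 CPM (1.02 ± 0.06). The 5 depleted members were the nuclear processing enzyme DROSHA at -0.56 ± 0.08, its partner DGCR8 at -0.85 ± 0.13, the export factor XPO5 at -1.01 ± 0.06, the DICER1 partner TARBP2 at -1.46 ± 0.24 and the Argonaute AGO1 at -0.23 ± 0.08.
POLK, a translesion polymerase, was at 155 and 161 CPM against 84.4 and 81.5 CPM (0.93 ± 0.07), and TET2, a 5-methylcytosine dioxygenase, at 1010 and 954 CPM against 410 and 420 CPM (1.25 ± 0.05).

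Among the coding messages the change followed base composition. Over 11903 coding genes with at least 1 CPM and a complete coding sequence, GC3 had a Spearman correlation of -0.512 with the log2 change, across genes, which are not independent replicates. Between single pairs of a P-body and a cytoplasmic library the value ran from -0.542 to -0.454. The ratio between libraries of the same fraction also went with GC3, with 0.225 in P-bodies and -0.284 in cytoplasm, although its size was small, since medians of that ratio over deciles of GC3 lay between -0.09 and 0.09 on the log2 scale. GC3 correlated with the mean level as well (-0.403), so level and composition moved together.
In the decile with the lowest GC3, 22.1% to 35.6%, 828 of 1191 genes were enriched and 114 depleted, with a median log2 change of 0.60. In the highest decile, 80.3% to 97.8%, 62 of 1191 were enriched and 778 depleted, with a median of -0.94. The medians fell in every step between these deciles. PNISR, in the lowest decile, was at 1530 and 1440 CPM against 486 and 501 CPM (1.59 ± 0.05), and ZEB1, a repressor of epithelial genes, at 1540 and 1470 CPM against 519 and 521 CPM (1.53 ± 0.05).

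**Figure D4:**
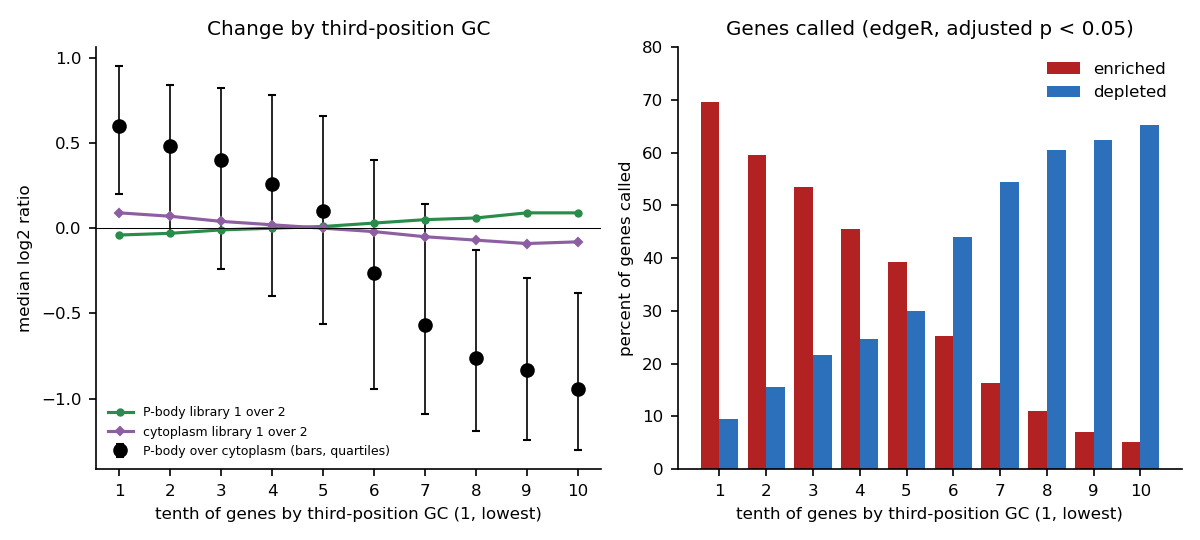
Left, median log2 ratio (vertical axis) in deciles of coding genes from lowest to highest GC3 (horizontal axis), for P-body over cytoplasm (black, bars give the quartiles over genes) and for library 1 over library 2 of P-bodies (green) and cytoplasm (purple). Right, percent of genes called in each decile; enriched genes go from 69.5% to 5.21% and depleted genes from 9.57% to 65.3%.

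Of the other features, the GC content of the whole transcript had a stronger correlation than GC3, at -0.568. The correlation was -0.51 with the GC content of the 3′ UTR, -0.25 with that of the 5′ UTR, -0.424 with GC at the first codon position and -0.195 with GC at the second. With length it was 0.337 for the transcript, 0.317 for the 3′ UTR and 0.23 for the coding sequence, and with exon number 0.062. These features overlap with each other.
Coding length and GC3 were also split together. Among genes with coding sequences of 2400 nt or more, the median log2 change went from 0.52 at GC3 under 45% (660 of 1009 enriched) to -0.84 at 75% or more (262 of 418 depleted). Among genes under 600 nt it went from -0.09 (n = 275) to -1.02 (n = 316), and messages under 600 nt had the lowest median of the 4 length bands at each level of GC3.

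Some classes departed from the genes of like GC3, which were grouped by decile without regard to coding length. At a GC3 of 45 to 59.9%, coding sequences under 600 nt had a median log2 change of -0.66. Those of 2400 nt or more had one of 0.26. Whether the departures of the classes remain among genes of like coding length was not tested. Immediate-early genes had a median GC3 of 77.4%, yet the 24 with at least 1 CPM lay by a median of 1.14 above the median of their own GC3 decile. TGF-beta and BMP genes lay 0.93 above (n = 31) and HOX genes 0.81 above (n = 32). Respiratory chain subunits, with a median GC3 of 57.7%, had a median difference of -1.08 (n = 55), proteasome subunits of -0.97 (n = 32), citric acid cycle enzymes of -0.85 (n = 20) and genes of the endoplasmic reticulum of -0.80 (n = 36). Nucleoporins, with a median GC3 of only 41.4%, were at -0.65 (n = 28). Centrosome and cilium genes, at -0.01 (n = 54), lay at the median of their deciles. Chromatin remodelling genes lay 0.19 above (n = 28) and kinetochore genes 0.29 above (n = 37), less than their class medians of 0.49 and 0.65. HSPE1 had a GC3 of 26.2% and was nonetheless among the most depleted genes, and EMX2 one of 77.5% and was among the most enriched.

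Matches to known regulatory words in 3′ UTRs were counted within bands of UTR length, on the transcript strand only. The Pumilio word UGUANAUA occurred in 33.0% of 11924 3′ UTRs. Genes holding it had the higher median log2 change in all 4 length bands, for example 0.27 (n = 771) against -0.45 (n = 2698) in UTRs of 500 nt to under 1500 nt and 0.38 (n = 1809) against 0.02 (n = 1192) in UTRs of 3000 nt or more. When each band was split further by the GC content of the UTR (under 40%, 40 to 50% and from 50%), the difference was positive in 11 of 12 cells and ran from -0.05 to 0.66.
The AU-rich word UUAUUUAUU occurred in 10.4% of the 3′ UTRs. Its differences by length band ran from 0.20 to 0.62, and in the 9 cells of length and GC with at least 20 genes on each side from -0.05 to 0.34. It shares no full match with the Pumilio word.
Sites paired to the microRNA seeds shown earlier differed in direction. The let-7a site CUACCUC (1436 UTRs) had differences of -0.34 to 0.10 over the length bands, and the miR-122 site ACACUCC (9.45%) of -0.34 to 0.04. The miR-17 site GCACUUU (26.9%) had differences of 0.07 to 0.30 and the miR-21 site AUAAGCU (11.1%) of 0.20 to 0.59. Within cells of like length and GC the miR-17 site was on the positive side in 12 of 12, with differences of 0.01 to 0.59, the miR-21 site in 8 of 10, the miR-122 site in 7 of 10 (-0.19 to 0.14) and the let-7a site in 4 of 10. The negative differences of the miR-122 site by length band were thus not kept within like GC. These 4 microRNAs are shown out of 10 searched. Among the others the miR-19b site was positive in 9 of 10 cells (-0.05 to 0.29), more often than the miR-21 site. The miR-1 site was positive in 8 of 11, the miR-103a site in 7 of 11 and the miR-92a site in 6 of 9. For miR-10a it was 5 of 9 and for miR-16 5 of 12. A match of letters does not say that a site is bound.

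The P-body change in HEK293T was set beside that in liver bud progenitors and in neurons by an interaction test over 8 libraries each (2 libraries per fraction and cell type). The labels give the liver bud and neuron RNA as polyA RNA from another library kit. Cell type, library preparation and any difference in the tag construct therefore cannot be told apart. Both tests share the 4 HEK293T libraries. Against liver bud progenitors the change was higher in HEK293T for 3339 of 22242 genes (15.0%) and lower for 2788 (12.5%), and the median difference over all genes was 0.21. Scaled by library totals alone, the split was 2510 higher and 3665 lower.
EEF1A1 was low in HEK293T P-bodies (log2 change -1.43 in this fit) but high in those of liver bud progenitors, at 3320 and 3200 CPM against 1670 and 1720 CPM in cytoplasm (0.94), a difference of -2.38 ± 0.06 (adjusted p = 7.53e-33). ATP5MC3 likewise stood at 87.8 and 87.0 CPM against 40.1 and 37.3 CPM in liver bud progenitors, a difference of -3.39 ± 0.13, and CCNG1, a cyclin induced by p53, at 2720 and 2660 CPM against 971 and 893 CPM there and at 164 and 189 CPM against 249 and 246 CPM in HEK293T (-2.01 ± 0.08). Chromatin genes went the other way. SMARCC2, a BAF subunit, was at 468 and 469 CPM against 190 and 194 CPM in HEK293T and at 119 and 124 CPM against 207 and 220 CPM in liver bud progenitors (2.10 ± 0.09). CHD8 and the acetyltransferase KAT7 had differences of 1.77 ± 0.08 and 1.84 ± 0.09.
By class, 48 of 55 respiratory chain subunits and 28 of 32 proteasome subunits had a lower change in HEK293T than in liver bud progenitors, and 27 of 33 histone methyltransferases and demethylases a higher one. The class medians in liver bud progenitors themselves were 0.59, 0.58 and 0.03.

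Against neurons the change was higher in HEK293T for 1379 of 22262 genes (6.19%) and lower for 1414 (6.35%), with a median difference of -0.16. This count was less stable. Scaled by library totals it was 446 higher and 3328 lower, without neuron P-body replicate 1 it was 2372 and 2499, and without neuron P-body replicate 2 it was 2369 and 2227. Of the HEK293T libraries, leaving out P-body replicate 1 gave 923 and 672, P-body replicate 2 gave 781 and 792, cytoplasm replicate 1 gave 786 and 776, and cytoplasm replicate 2 gave 818 and 903. Leaving out neuron cytoplasm replicate 1 gave 920 and 896.
LSM14A, the tagged protein, had 583 and 588 CPM in neuron P-bodies against 140 and 150 CPM in neuron cytoplasm, and 392 and 396 CPM against 506 and 500 CPM in HEK293T, a difference of -2.36 ± 0.10 (adjusted p = 1.30e-09). DEPDC1, a gene of dividing cells, was at 164 and 183 CPM against 9.13 and 9.82 CPM in neurons and at 1000 and 1010 CPM against 552 and 479 CPM in HEK293T (-3.23 ± 0.14), and PRTG, protogenin, differed by -2.27 ± 0.10. On the other side MAP1B, a neuronal microtubule protein, was at 15600 and 15900 CPM against 28900 and 29700 CPM in neurons and level in HEK293T, at 340 and 332 CPM against 312 and 321 CPM (0.99 ± 0.07). FAT3, an atypical cadherin, and YWHAG, a 14-3-3 protein, differed by 1.68 ± 0.10 and 1.48 ± 0.09.
For the classes, 18 of 55 respiratory chain subunits and 11 of 32 proteasome subunits had a lower change in HEK293T than in neurons, and for 13 of 37 kinetochore genes the change was lower in HEK293T and for 1 higher.

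**Figure D5:**
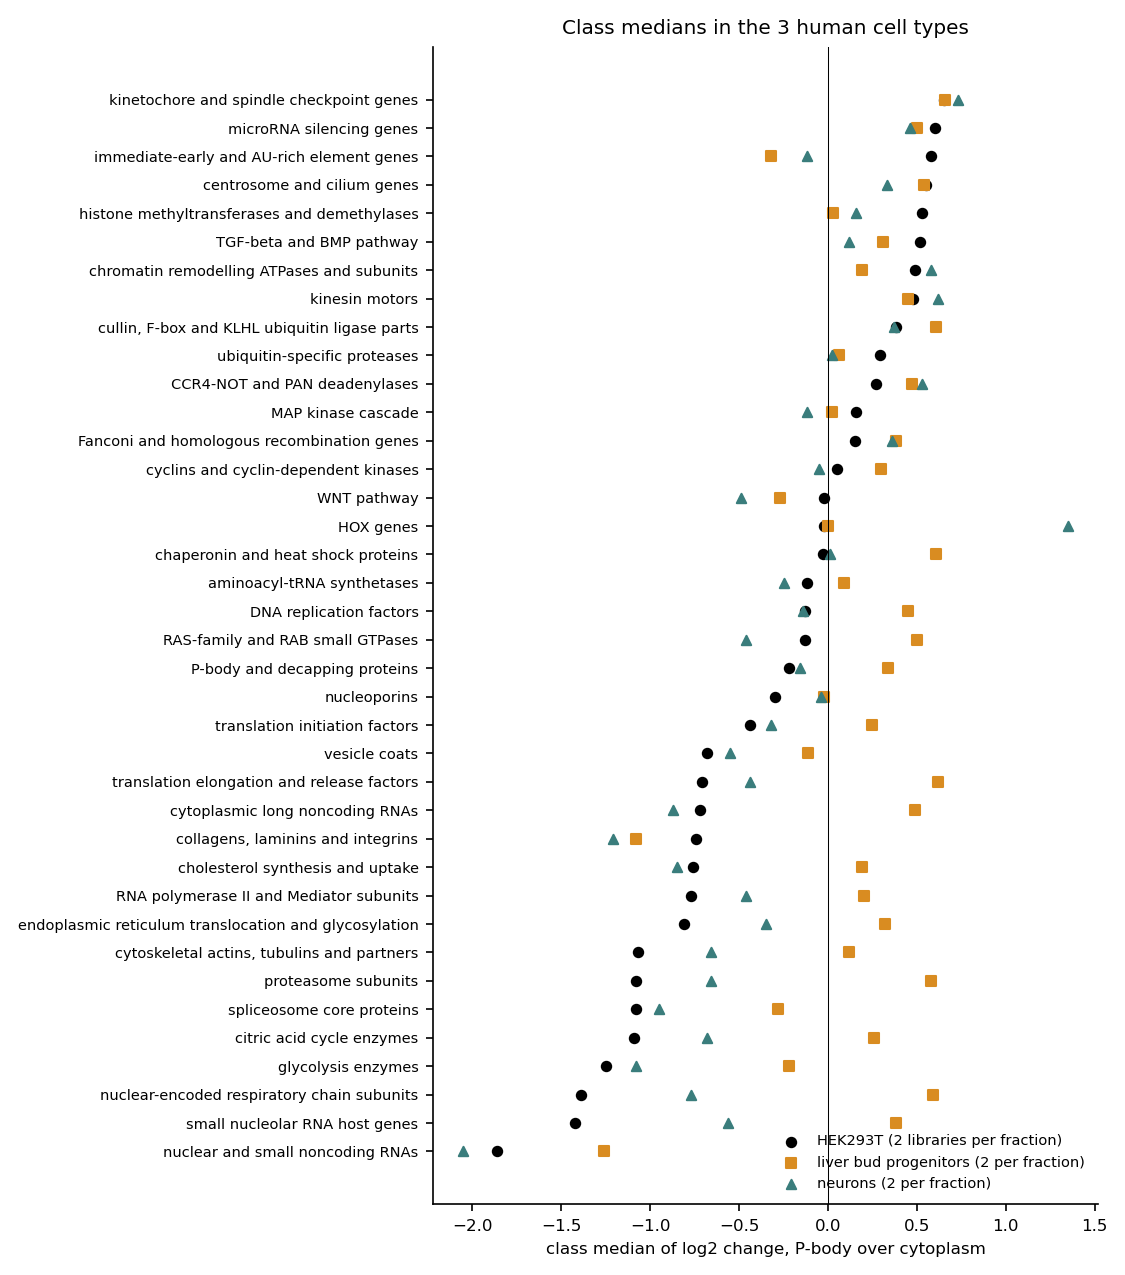
Class medians of the log2 change between P-body and cytoplasm (horizontal axis) for 38 gene classes (rows) in HEK293T (black circles), liver bud progenitors (orange squares) and neurons (teal triangles), each from 2 libraries per fraction and each scaled in its own fit. Respiratory chain subunits are at -1.39 in HEK293T, 0.59 in liver bud progenitors and -0.77 in neurons, while kinetochore genes are at 0.65, 0.66 and 0.73. Gene by gene, the median difference of kinetochore genes was nonetheless -0.55 for HEK293T minus neurons.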

How the data were processed

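The authors deposited raw gene counts, estimated with salmon in the nf-core RNA-seq workflow on hg38 with UCSC gene models, after removing genes with fewer than 10 reads over all samples. Per the labels DESeq2 was part of their processing, and their tables of fold changes and p-values were not used, nor were the mouse counts. Counts were tested as deposited with edgeR 4.0.16 (R 4.3.3; TMM scaling, quasi-likelihood, Benjamini-Hochberg adjusted p under 0.05) over the 4 HEK293T libraries, leaving out genes at 0 in all 4. The residual degrees of freedom were 2 per gene, moderated across genes, and the common biological coefficient of variation was 0.0673. Each SE was back-calculated as the absolute log2 change over the square root of the test's F statistic. It thus rests on the moderated spread and not on the libraries of that gene alone. CPM are TMM-scaled. PCR reads carried no molecular identifiers, and 3 counts correspond to 0.167 to 0.268 CPM. Libraries of a fraction differed by more than counting noise (chi-square per gene 3.57 and 5.72) and were each counted as 1 replicate. Transcripts were those of GENCODE 44 for 20966 of 22286 symbols (MANE Select, else canonical). Named genes were the 10 most changed coding genes per direction whose mean level reached 20 CPM and whose fractions did not overlap, 3 noncoding genes per direction, up to 2 genes per class and direction and 3 per interaction and direction by p-value, and LSM14A, DDX6, EDC4, POLK and TET2. Some of the genes so chosen are not reported here. Classes are described by counts and medians without a set test. The members and lists were chosen with earlier results of these data known. On simulated counts for 21586 genes the HEK293T test recovered 100% of 200 genes changed 3-fold, with 29 false calls. The liver bud interaction recovered 97.5% of 200 such genes, with 17 false calls, and the neuron interaction 85%, with 34 false calls. Recovery of genes changed less than 3-fold was not tested. Alternatives were DESeq2 1.42.0, other scalings and filters, a replicate block, a fit of all 12 human libraries and leaving out each library.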

Additional observations from a re-analysis of the deposited data

Results flagged for a closer look

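Among the genes tested for a different P-body change between HEK293T and another cell type, the 12 named by smallest p-value stood out by that test of the difference. A positive value means a higher log2 change in HEK293T, and library preparation differed with cell type in both comparisons. Against liver bud progenitors the differences were 2.10 for SMARCC2, 1.77 for CHD8, 1.84 for KAT7, -2.38 for EEF1A1, -2.01 for CCNG1 and -3.39 for ATP5MC3. Against neurons they were 1.68 for FAT3, 1.48 for YWHAG, 0.99 for MAP1B, -2.36 for LSM14A, -3.23 for DEPDC1 and -2.27 for PRTG. LSM14A is the gene of the tagged protein, and reads of the native and tagged copies were counted together. All 12 kept their direction and their call in each alternative fit, 168 in all.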

How the results depend on the processing

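With 2 libraries per fraction, leaving out 1 assumes that the lone library varies like the other fraction. Enriched and depleted genes numbered 4024 and 3803 with DESeq2, 4572 and 4591 with RLE size factors, 3684 and 5635 with library totals alone (which moved the median of all genes from -0.01 to -0.13) and 4014 and 3451 with all 12 human libraries. Leaving out 1 library gave 3798 to 4206 and 4413 to 4588. Long noncoding genes enriched went from 104 to 65 with DESeq2 and to 66 with all 12 libraries (alternatives chosen after seeing the data), and 77 to 101 with a library left out. Classes with a median above that of all genes numbered 14 to 18. Medians reversed for cyclins (-0.08, library totals) and aminoacyl-tRNA synthetases (0.01, all 12 libraries). The GC3 correlation was -0.333 over every gene tested and -0.527 to -0.477 with a library left out.
Against liver bud progenitors, genes with a higher change in HEK293T numbered 2410 and those with a lower one 3739 under a filter on low counts, and 2920 to 3307 and 2225 to 2615 with a library left out. Against neurons the same filter gave 1023 and 1958. Library totals alone gave 446 and 3328 (median difference -0.59), and leaving out a library gave 781 to 2372 and 672 to 2499. The cause was not tested.
The labels number replicates 1 and 2 in both fractions, but do not say that a number marks a shared lysate. Differences between replicates had a correlation of -0.0058 across fractions, which does not settle whether the libraries are paired, and the numbers were not used as pairs. With the replicate block 4157 genes were enriched and 4981 depleted, 3327 and 2809 differed from liver bud progenitors, and 1784 and 1780 from neurons.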
